A study of Mus musculus with 21 samples.

Results

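The Notch receptors, their ligands and the Hes/Hey genes that they switch on were followed through the first 5 days of differentiation of CGR8, a line of embryonic stem cells from the mouse. The set holds 10 genes, chosen by name with earlier results of these data known, and all are reported whatever their test. With all of their probe sets in the platform annotation, they are 4 receptors, 3 ligands and 3 targets. The receptors are Notch1 to Notch4, the ligands Dll1, Dll3 and Jag1, and the targets Hes1, Hey1 and Hey2. The counts of called members below are therefore not those of a blind choice of genes. The members account for 17 of 45101 probe sets, and for 10 of the 18193 genes that were tested. A probe set is a group of short probes read as 1 transcript signal, and where a gene has several, the one with the brightest average signal stands for it unless another is named.

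The 7 groups of 3 arrays were compared, 21 arrays in all, each labelled as a biological replicate. Undifferentiated cells (day 0) came from the medium labelled 10% GMEM. The other 6 groups were embryoid bodies, the floating aggregates in which stem cells begin to form germ layers, in the medium labelled 20% IMDM, at days 2, 3 and 5, either with ascorbic acid (vitamin C, 100 µM) or without it as controls. The aggregates began as 500 cells in a 25 µL hanging drop and were shaken after day 2. All groups share the CGR8 background, a single line with no transgene named in the labels. The submitters kept only samples whose aggregates went on to beat more often under ascorbic acid, so the series is a selected one. The values are log2 signals, on which a difference of 1 equals a doubling.

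Notch receptors are single-pass membrane proteins that are cut when a ligand on a neighbouring cell binds them. The freed intracellular part enters the nucleus, joins the DNA-binding protein Rbpj and a Mastermind coactivator, and turns on genes such as Hes1, Hey1 and Hey2, which encode transcriptional repressors. In the early embryo the pathway is known for its work in the mesoderm, the endothelium and the developing heart, where Hey2 marks the ventricle and Jag1 and Notch1 shape the valves and vessels.

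The labels were checked against marker genes. The mean log2 signal of 8 naive pluripotency markers was at least 9.28 at day 0 and 5.99 to 6.23 in controls of day 5, and that of 8 cardiac mesoderm markers was 6.40 to 6.60 in the stem cells and 8.04 to 8.17 in those controls. Day 0 replicate 1 stood apart from the rest of its group: its naive markers averaged 9.28 against 10.61 or more in the other 2, and its 6 primed epiblast markers 9.27 against 7.51 and 6.85. It correlated with the other day 0 arrays at r = 0.974 and 0.972, below the 0.985 it reached with day 2 control replicate 1. Results that use day 0 are therefore given with and without it, except for probe sets other than the brightest of a gene. Replicate 3 of day 3 had the lowest primitive streak markers of its day in both arms (means of 7.34 and 7.12, against highest values of 9.37 and 9.29), and the day 3 steps were also run without it. These are bulk samples, so fewer cells of a type and less RNA per cell cannot be told apart.

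Promoter sequences are shown for Hey2, the member with the largest change, and for Jag1 and Dll3, the ligands that differed with ascorbic acid when arrays were paired. RefSeq promoters (build GRCm38.p6, 250 bases before to 50 after the start site) were found for 8 of the 10 genes. Hes1 and Hey1 had none, so Hey2 is the only target whose promoter was read. Each is written 5′ to 3′ on the gene's own strand, with any TGGGAA, the core letters read by Rbpj, or TTCCCA, its reverse complement, in capitals. Hey2 lies at chr10:30842734-30843033, Jag1 at chr2:137116471-137116770 and Dll3 at chr7:28301736-28302035, all on the minus strand.
Hey2: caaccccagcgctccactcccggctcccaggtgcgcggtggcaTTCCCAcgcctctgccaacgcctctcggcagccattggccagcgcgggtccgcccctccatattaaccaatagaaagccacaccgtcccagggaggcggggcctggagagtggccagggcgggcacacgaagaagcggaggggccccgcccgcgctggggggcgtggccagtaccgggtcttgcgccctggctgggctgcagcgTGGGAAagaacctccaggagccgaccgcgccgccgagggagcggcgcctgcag
Jag1: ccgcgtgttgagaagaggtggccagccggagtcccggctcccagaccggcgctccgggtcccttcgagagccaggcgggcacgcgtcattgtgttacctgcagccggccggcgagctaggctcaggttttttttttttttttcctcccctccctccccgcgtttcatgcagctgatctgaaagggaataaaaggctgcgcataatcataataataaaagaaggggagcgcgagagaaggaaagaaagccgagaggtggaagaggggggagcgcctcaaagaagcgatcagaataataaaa
Dll3: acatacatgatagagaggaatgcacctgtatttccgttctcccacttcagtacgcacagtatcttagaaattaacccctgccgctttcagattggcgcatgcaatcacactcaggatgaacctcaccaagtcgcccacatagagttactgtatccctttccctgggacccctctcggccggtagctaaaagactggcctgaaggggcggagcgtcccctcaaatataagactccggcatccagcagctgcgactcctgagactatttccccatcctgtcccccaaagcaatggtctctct

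The Hey2 window held 2 matches, at -207 and -3 bases from the start site, while the Jag1 and Dll3 windows held 0. Of 32851 promoters of the same length, 25.6% held the motif on either strand. CACNAG and CACGTG, letters read by Hes and Hey proteins, were in 42.5% and 7.15% of promoters. Neither was in the Hey2, Jag1 or Dll3 window, and 1 of the 2 Dll1 promoters held 1 CACNAG. A match describes letters only and is not a measured binding site.

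Across the course without ascorbic acid the 10 genes did not move together. Hey2 appeared at day 5, Notch2 and Hey1 were higher at day 5 than at day 0, Dll3 rose and then fell, Notch1 dipped at days 2 and 3 and returned, and Hes1 was highest at day 3. Notch3 stayed in the same range from day 2 on. The plot of levels in every array shows these courses side by side.

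**Figure D1:**
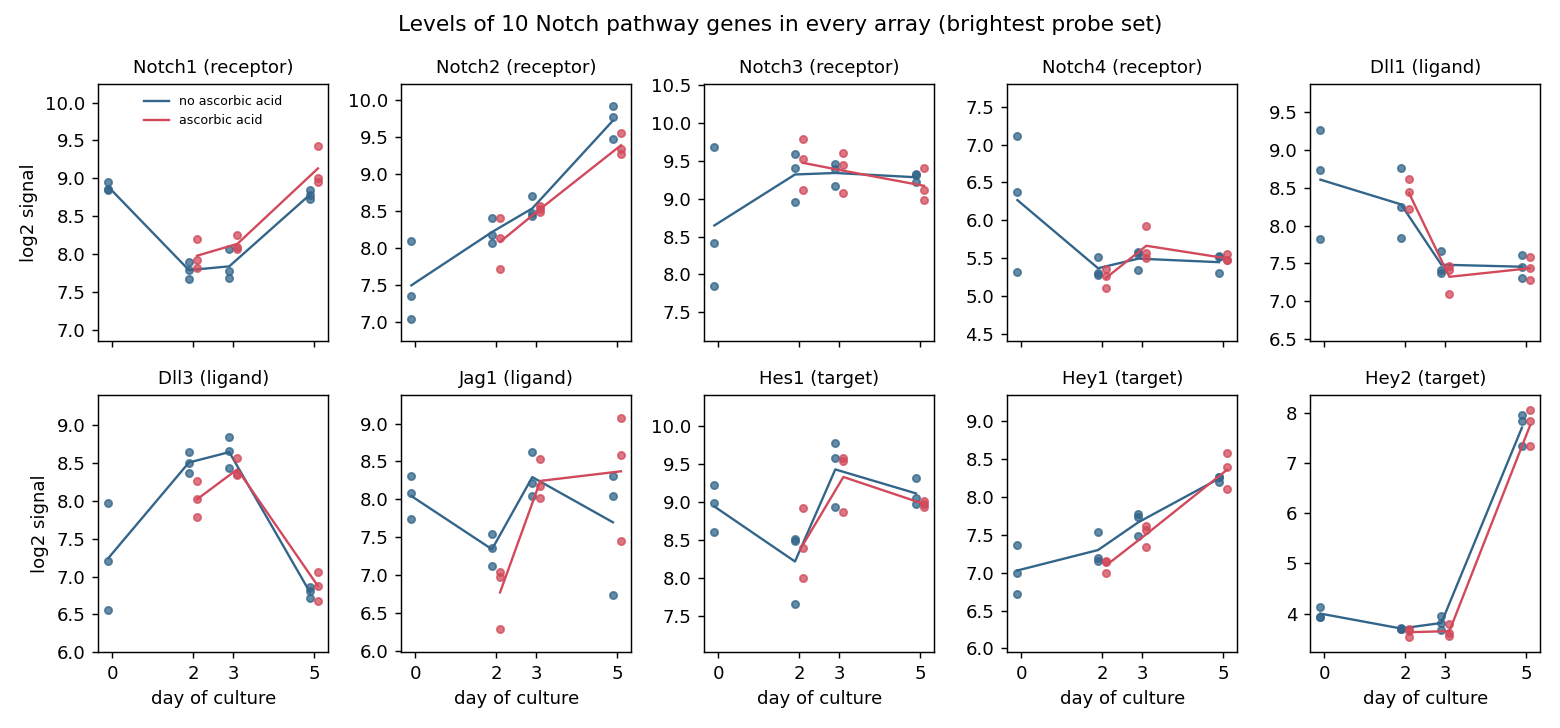
Log2 signal (vertical axes) of the 10 genes against day of culture (horizontal axes); points are single arrays, lines join group means, blue without and red with ascorbic acid, and each panel has its own scale. Hey2 sits between 3.53 and 4.13 in every array up to day 3 and between 7.34 and 8.06 at day 5, while the 3 day 0 arrays of Notch3, Notch4, Dll1 and Dll3 are widely spread.

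Notch1, the receptor most studied in blood and endothelium, was high at both ends of the course. Its log2 signal was 8.86, 8.95 and 8.85 in the 3 day 0 arrays, 7.79, 7.90 and 7.67 in day 2 controls, 7.68, 8.06 and 7.77 in day 3 controls, and 8.85, 8.72 and 8.78 in day 5 controls. No day 2 or day 3 array reached any day 0 or day 5 array, while days 2 and 3 overlapped, as did days 0 and 5. From day 0 to day 2 Notch1 fell 2.14-fold (log2 difference -1.10 ± 0.14, SE; adjusted p = 5.68e-05, limma), and without day 0 replicate 1 the difference was -1.11 ± 0.16. From day 3 to day 5 it rose 1.93-fold (0.95 ± 0.14, adjusted p = 5.46e-05). Its other probe set, 1418633_at, went from a mean of 7.72 to 7.91 over this step and was not called.

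Notch2, a receptor known from the outflow tract and smooth muscle, was lowest at day 0 and highest at day 5. Its signal was 8.09, 7.35 and 7.04 at day 0, 8.18, 8.40 and 8.06 in day 2 controls, 8.43, 8.70 and 8.47 in day 3 controls and 9.47, 9.92 and 9.77 in day 5 controls. All day 5 arrays lay above all others, whereas day 0 replicate 1 reached into the day 2 range. Over the whole course Notch2 rose 4.68-fold (log2 difference 2.23 ± 0.21, adjusted p = 8.99e-08), of which 1.19 ± 0.21 fell between days 3 and 5 (adjusted p = 0.000358) and 0.72 ± 0.21 between days 0 and 2 (adjusted p = 0.0287). Without day 0 replicate 1 the whole course was 2.53 ± 0.18 and the first step 1.02 ± 0.18 (adjusted p = 0.000315), and the call was lost without day 0 replicate 2 or 3 or day 2 control replicate 1 or 2, down to 0.49 (adjusted p = 0.168) without day 0 replicate 3.

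Notch3 read 9.68, 8.41 and 7.85 at day 0 and between 8.96 and 9.59 in the 9 control arrays of days 2 to 5, with group means of 9.32, 9.34 and 9.28. The day 0 arrays therefore spanned more than all later ones. The step from day 0 to day 2 was 0.67 ± 0.30 (adjusted p = 0.172), and without day 0 replicate 1 it was 1.19 ± 0.21, or 2.28-fold (adjusted p = 0.000429).

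Notch4, a receptor of the endothelium, was above its later level in part of the day 0 arrays. It read 5.32, 7.11 and 6.37 at day 0 and 5.28 to 5.58 in all 9 later controls, so that only day 0 replicates 2 and 3 stood above the rest. The step from day 0 to day 2 was -0.90 ± 0.26 (adjusted p = 0.0288). It was -1.37 ± 0.17 without replicate 1 (adjusted p = 8.22e-06) and -0.48 without replicate 2 (adjusted p = 0.207), and the call was also lost without day 0 replicate 3 (adjusted p = 0.0914) or day 2 control replicate 1 or 2. The other 2 probe sets of Notch4 did not share the fall: their means went from 5.05 to 5.15 and from 4.44 to 4.68 over this step. At day 0 they stood above only 28.0% and 17.5% of probe sets, so they may not be able to show a fall.

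Among the ligands, Dll3 had the clearest rise and fall. Dll3 is the divergent Delta ligand that is known from the presomitic mesoderm and is thought to inhibit Notch within its own cell. It read 7.97, 7.20 and 6.56 at day 0, 8.50, 8.65 and 8.37 in day 2 controls, 8.84, 8.43 and 8.66 in day 3 controls, and 6.81, 6.86 and 6.71 in day 5 controls. No array of days 2 or 3 overlapped those of day 0 or day 5. Dll3 rose 2.40-fold to day 2 (log2 difference 1.26 ± 0.23, adjusted p = 0.00137) and fell 3.61-fold from day 3 to day 5 (-1.85 ± 0.23, adjusted p = 8.01e-06). The first step was 1.63 ± 0.18 without day 0 replicate 1, and with only the 2 groups in the fit its adjusted p was 0.103.

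The presomitic and paraxial mesoderm markers, 7 of 7 measured, did not move with Dll3: their mean was 6.02 to 6.13 in day 2 controls, 5.86 to 5.94 in day 3 controls and 5.83 to 6.15 in day 5 controls. The 6 primed epiblast markers averaged 6.85 to 9.27 at day 0, 10.09 to 10.31 at day 2, 10.09 to 10.49 at day 3 and 6.89 to 7.43 at day 5 without ascorbic acid, high on the same days as Dll3. The 8 measured neuroectoderm markers averaged 6.59 to 7.31 at day 0, overlapping the 7.27 to 7.36 of day 2. They averaged 7.37 to 7.50 at day 3 and 6.11 to 6.51 at day 5, and 4 of the 8 fell in the last step (9.24% of all genes). Otx2 is in both this list and the primed epiblast list. The part of either list in the Dll3 values was not tested.

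Dll1, the Delta ligand of presomitic and neural tissue, was highest early. It read 9.26, 8.74 and 7.82 at day 0, 7.84 to 8.76 in day 2 controls, 7.38 to 7.66 in day 3 controls and 7.31 to 7.61 in day 5 controls. The later days lay below all arrays of days 0 and 2. Dll1 was 2.22-fold lower at day 5 than at day 0 (log2 difference -1.15 ± 0.26, adjusted p = 0.00184), and 1.77-fold lower without day 0 replicate 1 (-0.82 ± 0.24, adjusted p = 0.0114). The step from day 2 to day 3 was -0.80 ± 0.26 (adjusted p = 0.0789), although the groups did not overlap.

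Jag1, the Serrate-type ligand needed for vessel and heart development, had the widest spread of any member at day 5. Its control arrays read 8.31, 8.08 and 7.74 at day 0, 7.54, 7.36 and 7.12 at day 2, 8.21, 8.62 and 8.05 at day 3, and 8.04, 8.31 and 6.74 at day 5. Day 2 lay below days 0 and 3 with no overlap, and day 5 replicate 3 lay below every day 2 array. None of its control steps passed the test: 0.95 ± 0.36 from day 2 to day 3 had adjusted p = 0.137.

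Hey2, a repressor of the ventricular heart, had the largest change of the set. Its signal was 3.93 to 4.13 at day 0, 3.69 to 3.72 in day 2 controls and 3.67 to 3.96 in day 3 controls, and then 7.34, 7.95 and 7.83 in day 5 controls. The first 3 groups lay near the low end of the array, above at most 10.9% of probe sets, so they were not shown to exceed background and no fold is given. The signal differed by 3.89 ± 0.16 log2 units between days 3 and 5 (adjusted p = 6.28e-13), a lower bound on the change where the earlier arrays hold only background. Between days 0 and 5 it differed by 3.71 ± 0.16, and by 3.68 ± 0.18 without day 0 replicate 1, with the same limit.

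Hey1, which acts beside Hey2 in the heart and vessels, rose in smaller steps. It read 6.72 to 7.37 at day 0, 7.16 to 7.54 at day 2, 7.48 to 7.78 at day 3 and 8.20 to 8.27 at day 5 without ascorbic acid. Neighbouring groups up to day 3 overlapped, and day 5 lay above all. Hey1 rose 2.32-fold over the course (log2 difference 1.21 ± 0.16, adjusted p = 5.71e-06; 1.38 ± 0.16 without day 0 replicate 1) and by 0.58 ± 0.16 between days 3 and 5 (adjusted p = 0.0138). Without replicate 3 of day 3 that last step was 0.48 ± 0.18 with adjusted p = 0.0902.

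Hes1, the general Notch target and a factor that oscillates in stem cells, followed another course. It read 8.60, 8.99 and 9.23 at day 0, 8.51, 8.48 and 7.65 in day 2 controls, 9.78, 9.58 and 8.93 in day 3 controls, and 8.97, 9.05 and 9.32 in day 5 controls. All day 3 arrays exceeded all day 2 arrays, and replicate 3 was lowest on both days. Hes1 rose 2.32-fold from day 2 to day 3 (log2 difference 1.22 ± 0.27, adjusted p = 0.0105). Without replicate 3 of day 3 the step was 1.47 ± 0.26 (adjusted p = 0.00218), and without day 2 control replicate 3 it was 0.94 (adjusted p = 0.0651), without day 3 control replicate 1 it was 1.04 (adjusted p = 0.0666) and without day 3 control replicate 2 it was 1.14 (adjusted p = 0.0684).

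Counted by step, 4 of 10 genes were called between the stem cells and the day 2 controls, where 11.8% of all genes were called. Of these 2 were higher (Notch2 and Dll3; 4.80% of all genes) and 2 lower (Notch1 and Notch4; 6.99%). Without day 0 replicate 1 the count was 6, with Notch3 higher and Hes1 lower (-0.90 ± 0.28, adjusted p = 0.0296) beside those 4, against 20.4% of all genes. This step joins a change of medium, aggregation and 2 days of time, which cannot be told apart. From day 2 to day 3, 1 of 10 was called (Hes1, higher; 5.81% of all genes called, 4.86% higher), and also 1 without replicate 3 of day 3 (5.61%). From day 3 to day 5, 5 of 10 were called, Notch1, Notch2, Hey1 and Hey2 higher and Dll3 lower, against 18.3% of all genes (9.08% higher and 9.24% lower). Without replicate 3 of day 3 the count was 4, Hey1 being lost, against 12.0%. Between day 0 and day 5, 5 of 10 were called (29.9% of all genes), Notch2, Hey1 and Hey2 higher (15.9%) and Dll1 and Notch4 lower (14.0%). The Notch4 call (-0.82 ± 0.26) was lost without day 0 replicate 2 (-0.40, adjusted p = 0.176), day 0 replicate 3 or day 5 control replicate 2, or with only those 2 groups fitted (adjusted p = 0.184). The difference was -1.29 without day 0 replicate 1. Without day 0 replicate 1 the count was 6, Notch3 being added (31.3%). The median log2 difference of the 10 genes was -0.31, 0.13, -0.04 and 0.04 in these 4 comparisons, beside 0.03, -0.03, -0.03 and -0.04 for all genes.

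**Figure D2:**
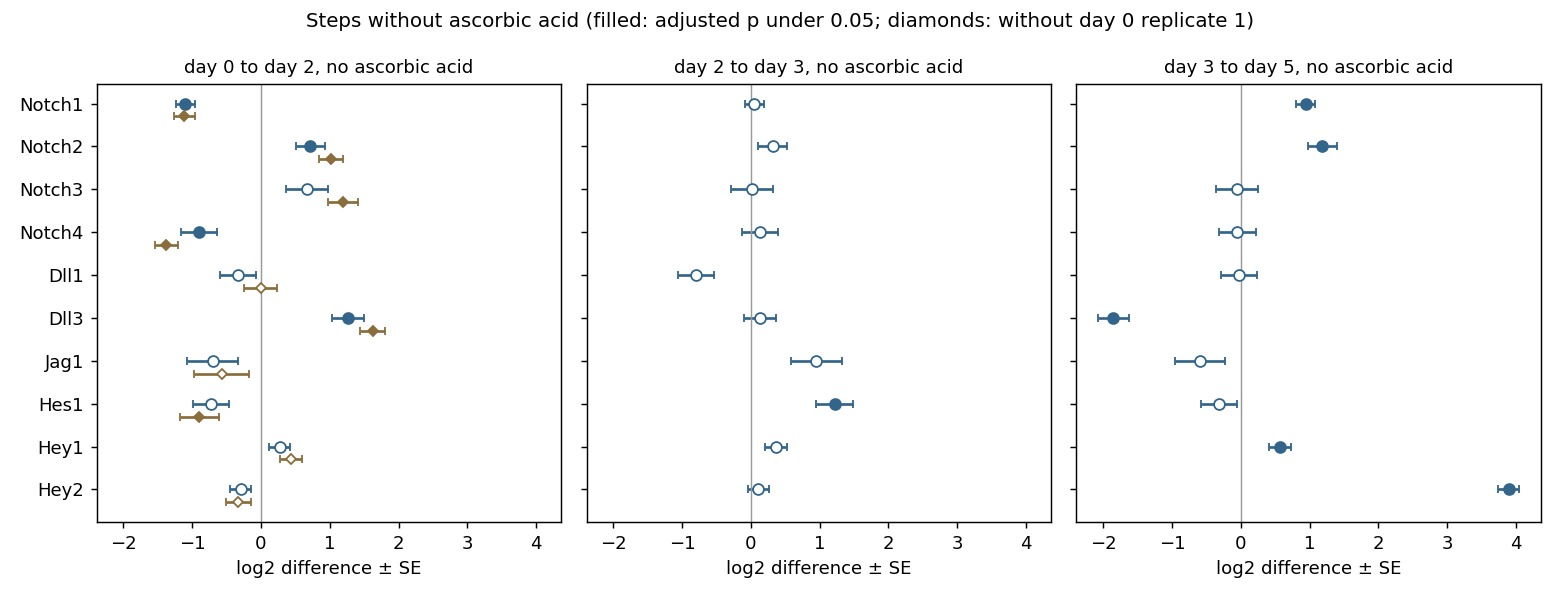
Log2 differences (horizontal axes, with SE) of the 10 genes in the 3 steps without ascorbic acid; filled symbols have an adjusted p under 0.05, and brown diamonds show the first step without day 0 replicate 1. Hey2 stands at 3.89 in the last step, a lower bound since its day 3 arrays were not shown to exceed background, and removing that day 0 array moves Notch3 from 0.67 to 1.19.

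With ascorbic acid the steps gave a similar picture, and the treated and control first steps share the day 0 arrays. From day 0 to day 2, 4 of 10 were called (13.7% of all genes, 7.42% higher and 6.27% lower): Dll3 higher by 0.78 ± 0.23, and Notch1 (-0.91 ± 0.14), Notch4 (-1.03 ± 0.26) and Jag1 (-1.27 ± 0.36) lower. Without day 0 replicate 1 the called genes were Dll3 and Notch1 to Notch4 (19.6% of all genes), and Jag1 was -1.14 ± 0.40 (adjusted p = 0.0518). The Dll3 call was lost without day 0 replicate 2 or 3 or day 2 treated replicate 1 or 2, that of Notch4 without day 0 replicate 2 or day 2 treated replicate 2, and that of Jag1 also without day 0 replicate 2 or day 2 treated replicate 3. From day 2 to day 3, 2 of 10 were called (4.69% of all genes, 3.41% higher and 1.29% lower): Jag1 rose by 1.47 ± 0.36 (2.78-fold, adjusted p = 0.0232) and Dll1 fell by 1.10 on the log2 scale (adjusted p = 0.0174). Each of these calls was lost without day 2 treated replicate 3 or either of day 3 treated replicates 1 and 2, and Dll1's also without day 2 treated replicate 1, with adjusted p values up to 0.148. Without replicate 3 of day 3 in both arms Hes1 was called too (1.12 ± 0.26, adjusted p = 0.0147; 5.14% of all genes). From day 3 to day 5, 5 of 10 were called (18.1%, 9.21% higher and 8.92% lower), by name the same 5 as without ascorbic acid, with Hey2 at 4.10 ± 0.16 (a lower bound, as in the controls), Notch1 at 1.00 ± 0.14, Notch2 at 0.86 ± 0.21, Hey1 at 0.85 ± 0.16 and Dll3 at -1.54 ± 0.23.

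The question the arrays were made for was what ascorbic acid changes before beating cells appear. In the unpaired fit 0 of 10 genes were called at day 2, day 3 or day 5, on average over the days, or in the F test of a difference between days. In the same fit 0.00550%, 0%, 0.0605%, 0.0275% and 0.00550% of all genes were called. At an unadjusted p under 0.05 that fit held 1 gene each for day 2 (Dll3), day 3, day 5 and the average (Notch1 in all 3), and 0 for the difference between days, where 7.37%, 1.48%, 3.24%, 4.82% and 2.70% of all genes lay under that p.

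Within a day, same-numbered treated and control arrays shared deviations from their group means (r from 0.178 to 0.679 in 9 of 9 pairs), so each treated array was also set against the control of its own number. The labels do not say what a shared number stands for, and the calls of the 10 genes for ascorbic acid below rest on this pairing. In this paired fit Jag1 and Dll3 were lower with ascorbic acid at day 2 (2 of 10 called; 2.64% of all genes, 0.539% lower), Jag1 was higher at day 5 (1 of 10; 0.956%, 0.781% higher), and Notch1 was higher on average over the days (1 of 10; 1.94%, 1.45% higher). At day 3, 0 of 10 were called by limma (0.198% of all genes), with 1 at an unadjusted p under 0.05. All of these differences are under 2-fold.

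Jag1 went opposite ways at days 2 and 5. With ascorbic acid it read 6.98, 7.04 and 6.29 at day 2, 8.18, 8.53 and 8.02 at day 3, and 9.07, 8.59 and 7.45 at day 5, in replicate order. The differences from the control of the same number were -0.56, -0.32 and -0.83 at day 2, -0.03, -0.09 and -0.03 at day 3, and 1.03, 0.28 and 0.71 at day 5. All pairs were lower at day 2 and all were higher at day 5, while the day 5 arrays themselves overlapped between arms because replicate 3 was low in both.

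The paired difference of Jag1 was -0.57 ± 0.13 at day 2 (1.48-fold lower, adjusted p = 0.0292) and 0.67 ± 0.13 at day 5 (1.59-fold higher, adjusted p = 0.0170). In the unpaired fit the adjusted p values were 0.725 and 1.00. The paired F test of a difference between days gave adjusted p = 0.00969 for Jag1, where 0.511% of all genes were called. Leaving out 1 of the 9 pairs at a time moved the adjusted p to 0.0155 to 0.153 at day 2, to 0.00824 to 0.363 at day 5 and to 0.00702 to 0.0788 for the F test. The day 2 call was lost without the pair of replicate 1 or 3 of day 2 or of replicate 2 or 3 of day 3. The day 5 call was lost without the day 5 pair of replicate 1 or of replicate 3, and the F test's without the day 2 or the day 5 pair of replicate 1.

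Only the brightest of the 3 Jag1 probe sets passed a test of ascorbic acid. In a paired fit of all probe sets, 1434070_at had -0.57 at day 2 and 0.67 at day 5 (adjusted p = 0.0399 and 0.0238; 1.64% and 0.615% of probe sets called), and its F test over days had adjusted p = 0.0134 (0.375% called). Over the same pairs 1421106_at had -0.11 and 0.28 (adjusted p = 0.785 and 0.803), and 1421105_at had -0.09 and 0.10. The day 2 pairs of 1421106_at were -0.20, 0.41 and -0.55. Over the 21 arrays 1434070_at and 1421106_at had r = 0.91, and 1421105_at followed neither (r = -0.03 and -0.16). Such an r mostly reflects which days are high and is not a reading of the ascorbic acid difference.

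Endothelium markers, like Jag1, were higher with ascorbic acid at day 5. The mean of the 11 markers, all measured, was 7.38, 7.39 and 6.67 in day 5 controls and 7.94, 7.89 and 7.20 with ascorbic acid, replicate 3 being lowest in both arms as it was for Jag1. The 3 pair differences were 0.57, 0.51 and 0.53, beside 1.03, 0.28 and 0.71 for Jag1. In the paired fit 4 of the 11 markers (Cdh5, Etv2, Sox18 and Tek) were called higher, where 0.781% of all genes were. Up to day 3 the mean of the 11 markers was 6.17 to 6.65. Without ascorbic acid the 2 courses differed: the markers rose from day 3 to day 5, while the mean of Jag1 went from 8.29 to 7.70. Cdh5, the vascular cadherin, was at 4.38 in day 3 controls and at 6.05 ± 1.11 and 7.02 ± 1.27 (SD, n = 3) at day 5 without and with ascorbic acid. The markers' part in the Jag1 difference was not tested, and at day 2, where Jag1 was lower, 0 of the 11 were called by limma.

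**Figure D3:**
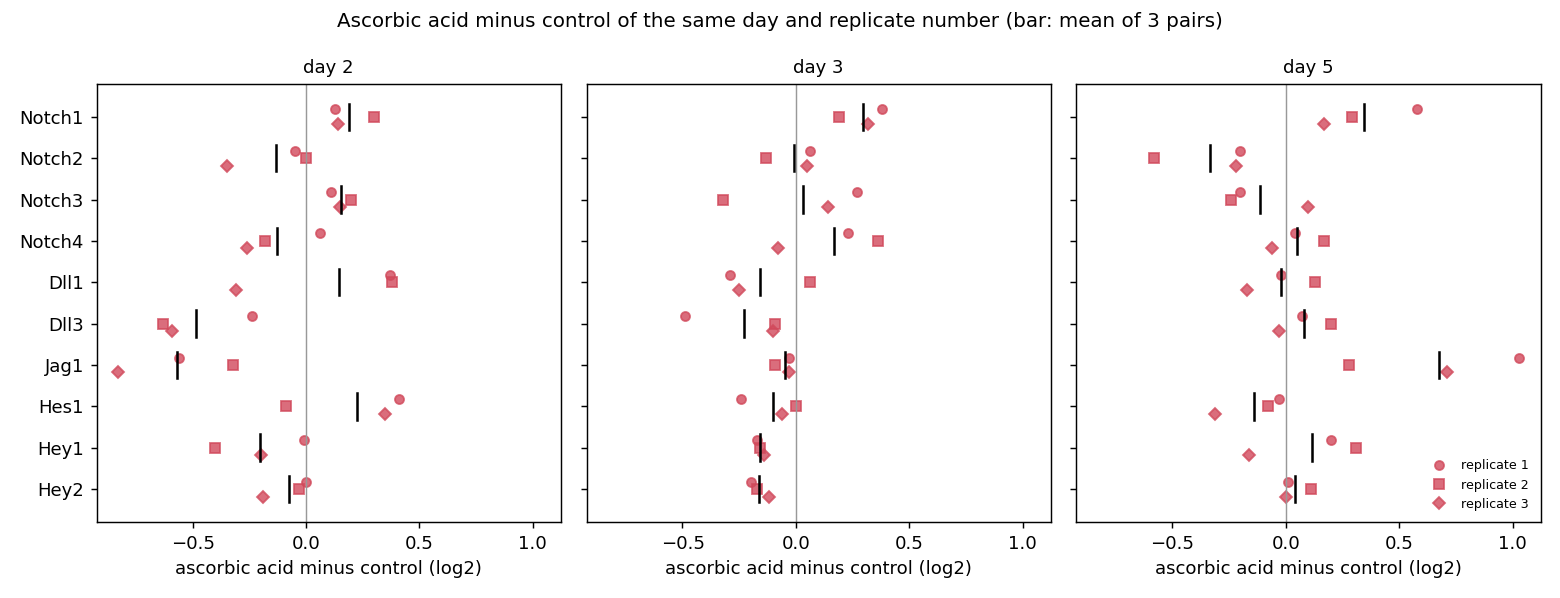
Log2 signal with ascorbic acid minus that of the control of the same day and replicate number (horizontal axes) for the 10 genes at days 2, 3 and 5; symbols are the 3 pairs and the black bar their mean. The Jag1 pairs lie below 0 at day 2, close to 0 at day 3 and above 0 at day 5, and all 9 Notch1 pairs lie above 0.

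Dll3 read 8.26, 8.02 and 7.78 with ascorbic acid at day 2, below all 3 controls (8.50, 8.65 and 8.37). Its pair differences were -0.24, -0.63 and -0.59, with a mean of -0.49 ± 0.12 (adjusted p = 0.0338 in the paired fit and 0.674 in the unpaired one). Leaving out single pairs gave -0.61 to -0.42, with adjusted p values of 0.0312 to 0.194, and the call was lost without any single day 2 pair or the day 3 pair of replicate 2 or 3. At day 5 Dll3 read 6.88, 7.06 and 6.68 with ascorbic acid, overlapping the controls.

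Notch1 was higher with ascorbic acid in 9 of 9 pairs, by 0.13 to 0.58. It read 7.92, 8.20 and 7.81 at day 2, 8.06, 8.25 and 8.09 at day 3 and 9.43, 9.01 and 8.95 at day 5, where all treated arrays lay above all controls. The average over the days was 0.28 ± 0.06 (1.21-fold, adjusted p = 0.0217 paired and 0.479 unpaired). With single pairs left out it was 0.24 to 0.31, with adjusted p values of 0.0183 to 0.0938, and the call was lost without the day 2 or day 5 pair of replicate 1 or any day 3 pair. The second Notch1 probe set, 1418633_at, had an average of 0.08 (adjusted p = 0.769) beside 0.28 for 1418634_at (adjusted p = 0.0365; 1.06% of probe sets called), and was higher in 4 of 9 pairs.

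The other 7 genes were not called in either fit, which does not show that they were alike. Notch2 at day 5 read 9.27, 9.34 and 9.55 with ascorbic acid, lower in 3 of 3 pairs by 0.33 ± 0.11 on the log2 scale (adjusted p = 0.265). For Hey2 at day 5 the arrays read 7.35, 8.06 and 7.83 with ascorbic acid, a paired difference of 0.04 with a 95% interval of -0.17 to 0.25. For Hes1 the interval was -0.37 to 0.09, and for Hey1 -0.13 to 0.36. At day 3 the 3 targets had paired differences of -0.10 (Hes1), -0.16 (Hey1) and -0.16 (Hey2). Hey2 then stood above only 8.83% of probe sets in controls and 6.70% with ascorbic acid, so its readings were not shown to exceed background.

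Probe sets of a receptor did not always tell the same story. The 2 Notch1 probe sets had r = 0.83 over the 21 arrays, and 1418633_at also fell from day 0 to day 2 (-0.45, adjusted p = 0.0415; 8.52% of probe sets called). From day 3 to day 5 it was 0.19 ± 0.14 in controls (adjusted p = 0.452), where 1418634_at had 0.95, and rose with ascorbic acid (0.47, adjusted p = 0.0229; 13.0%). The second Jag1 probe set, 1421106_at, was lower at day 2 than at day 0 both in controls (-1.03, adjusted p = 0.0473) and with ascorbic acid (-1.14, adjusted p = 0.0244; 9.73%). At day 0, in replicate order, 1418633_at read 8.28, 7.82 and 8.17, and 1421106_at read 7.40, 7.12 and 6.92. Replicate 1 was thus the highest for both, and their calls without it were not tested. The 2 Notch2 probe sets had r = -0.07: 1451889_at stayed between group means of 6.16 and 6.32 while 1455556_at went from 7.49 to 9.72. The Notch3 pair had r = 0.73. Among the 3 of Notch4, r was 0.10, -0.14 and 0.46. The rise of Notch2, the fall of Notch4 and the called rise of Notch1 from day 3 to day 5 in controls thus each rest on 1 probe set. Dll1, Dll3, Hes1, Hey1 and Hey2 have only 1.

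**Figure D4:**
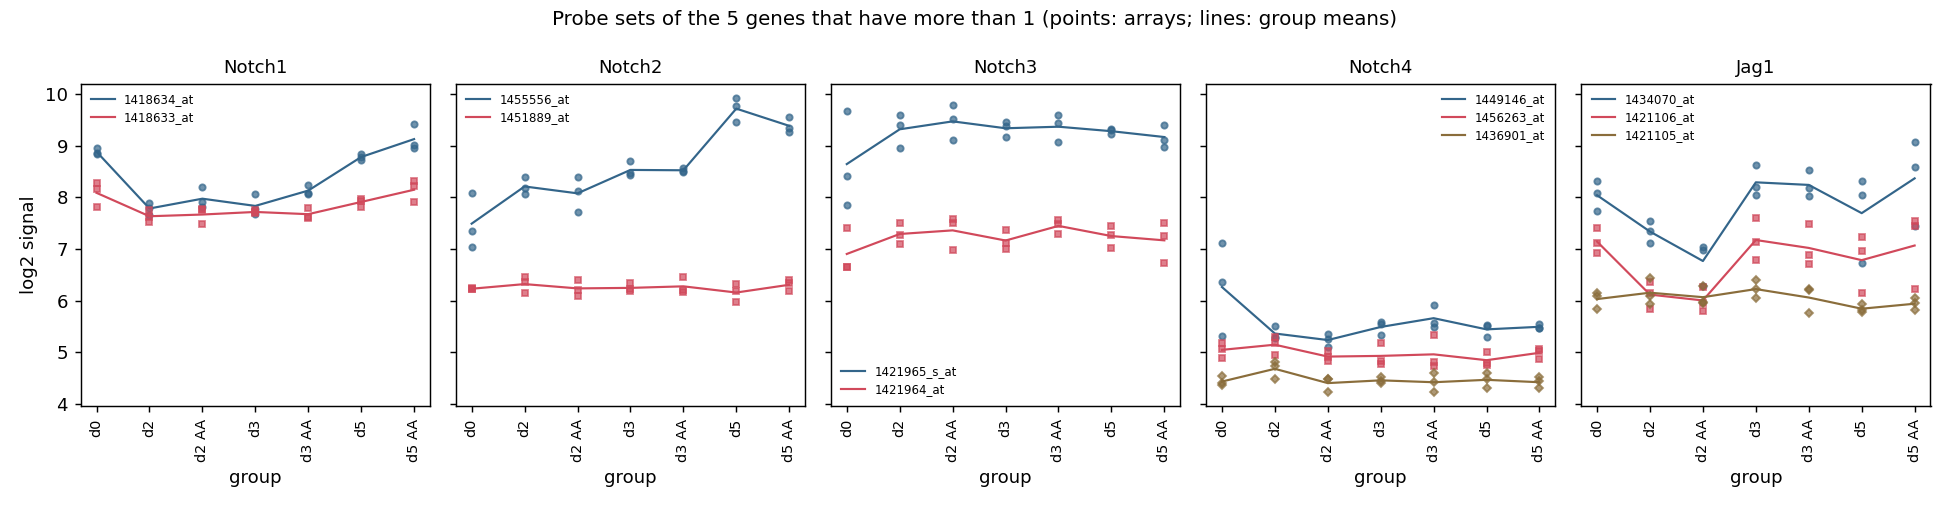
Log2 signal (vertical axis) of every probe set of the 5 genes with more than 1, by group (horizontal axis; d0 to d5 are days, AA is ascorbic acid); points are arrays and lines join group means. The lower Notch2 probe set stays between group means of 6.16 and 6.32 while the upper climbs to 9.72, and 2 of the 3 Jag1 probe sets dip at day 2.

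The rest of the pathway was described with a list of 50 genes, of which 46 were measured. From day 0 to day 2 0 of the 46 rose and 3 fell in the controls, beside 4.80% of all genes higher and 6.99% lower. Rbpj, the DNA-binding core of the pathway, fell 2.68-fold (log2 difference -1.42 ± 0.29, adjusted p = 0.00293), the corepressor Tle3 by 0.86 and the neuronal ligand gene Dner by 0.83 (by 1.11 and 1.05 without day 0 replicate 1). Rbpj read 9.61 to 11.22 at day 0 and 9.17 to 9.32 in day 2 controls, and without day 0 replicate 1 its difference was -1.95 ± 0.18. From day 2 to day 3, 4 rose (4.86% of all genes) and 0 fell: Mib1 (0.94 ± 0.17), the ubiquitin ligase that sends ligands into the cell, Tle3 (0.82 ± 0.22), the coactivator Maml1 (0.68 ± 0.17) and Pofut1 (0.61 ± 0.14), which adds the fucose that receptors need.

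From day 3 to day 5, 10 of the 46 rose and 4 fell, beside 9.08% of all genes higher and 9.24% lower. Receptor cleavage genes held 4 of the 10 rises, out of 8 measured, among them the proteases Adam10 (2.71-fold, 1.44 ± 0.20) and Furin (2.59-fold, 1.37 ± 0.20). Dlk1, a non-canonical ligand known as a Notch inhibitor, rose most, from 6.64 ± 0.12 to 9.61 ± 0.53 (SD, n = 3; 7.87-fold, adjusted p = 5.98e-09), and Numb, an inhibitor of the receptor, rose 1.75-fold. The falls were those of the corepressor Tle4 (4.53-fold, -2.18 ± 0.32), Hes6 (2.87-fold), the Notch regulator Dtx1 (2.11-fold) and Nrarp (-0.58 ± 0.18), a Notch target that limits the pathway. Of the 7 other Hes, Hey and direct target genes, 0 rose and 2 fell, while Hey1 and Hey2 rose on the same days. The median of the 46 was -0.03 in this step, beside -0.03 for all genes.

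**Figure D5:**
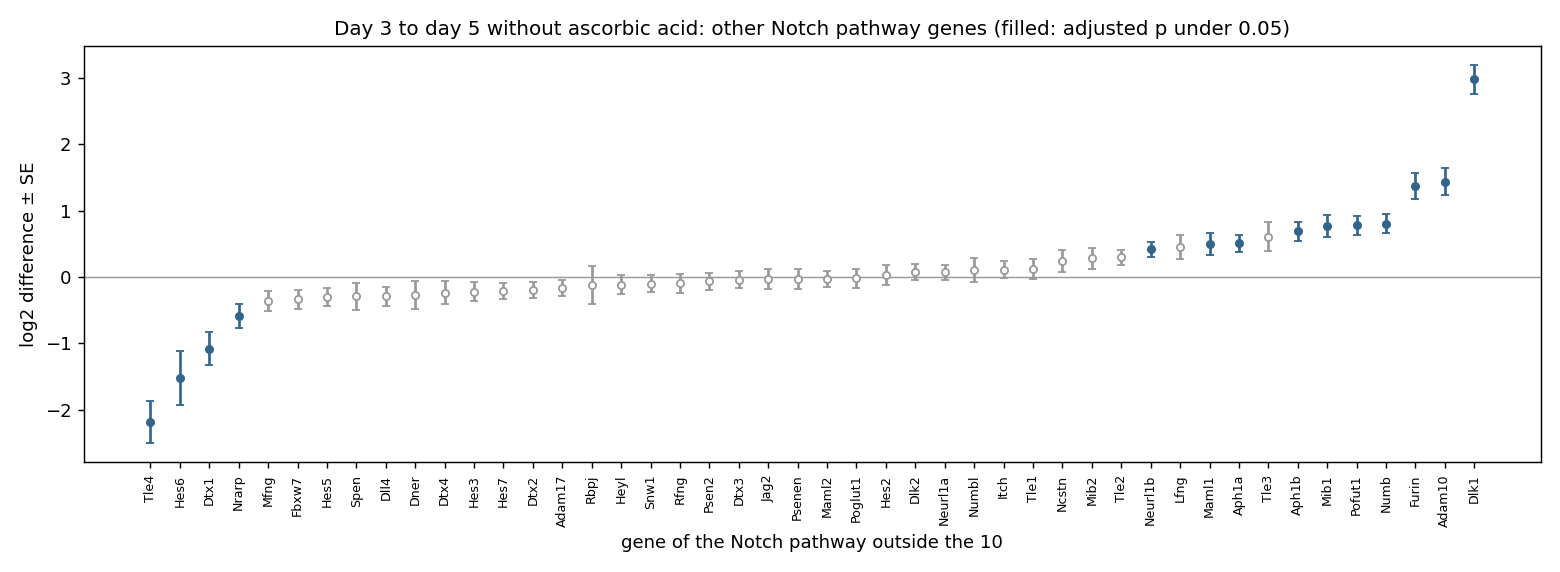
Log2 difference between day 5 and day 3 without ascorbic acid (vertical axis, with SE) for the 46 measured pathway genes outside the 10, in order of size; filled symbols have an adjusted p under 0.05. Dlk1 at 2.98 and Tle4 at -2.18 mark the ends, and most genes lie near 0.

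With ascorbic acid 0 of the 46 were called at any day in the unpaired fit. In the paired fit 1 of the 46 was called at day 2 (Mib1, 0.38 ± 0.10, adjusted p = 0.0470), where 2.64% of all genes were called, and 0 at day 3, at day 5 or on average. The medians of the 46 were -0.02, 0.01 and 0.00 at days 2, 3 and 5, beside -0.01, 0.01 and 0.01 for all genes.

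The courses were also set against those of 3252 genes whose group means range over at least 1 log2 unit, as a description over the same 21 arrays. Hey2 was followed most closely by Bmp5, a bone morphogenetic protein (r = 0.993), Rgs5 (r = 0.991) and Gata3 (r = 0.991). Notch2 was nearest to Cobll1 (r = 0.982), and Hey1 to Plscr3 (r = 0.977) and the keratin gene Krt8 (r = 0.967). Dll3 was nearest to the kinase gene Pim2 (r = 0.968), to Zic2 (r = 0.952) and to Dnmt3b (r = 0.948), the last 2 being primed epiblast markers. Notch1 was nearest to the fibronectin gene Fn1 (r = 0.916), Hes1 to Cxxc5 (r = 0.899), Dll1 to Slc25a40 (r = 0.890) and Notch4 to Gm4274 (r = 0.887). Jag1 had the weakest best match, Frem2 at r = 0.797. Within the set Notch2 and Hey1 had r = 0.93, Hey1 and Hey2 0.86, and Notch1 and Dll3 -0.87. These values mostly reflect which days are high, since arrays of a group are not independent points.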

How the data were processed

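RNA (100 ng per sample) from 21 cultures was hybridised to Affymetrix arrays, per the labels' protocols. The deposited values are log2 signals that the authors made with RMA, per the submitters' processing notes, with its version not given in the sources used here. RMA corrects background and forces arrays to 1 distribution (array medians 6.05 to 6.19), so a shift shared by all genes cannot be seen. Arrays give no read depth, and their number limits the precision. No 2 arrays held identical values.

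Of 45101 probe sets, 34945 carried 1 gene symbol, 932 several, 9160 none, and 64 AFFX controls were left out. Tests used R 4.3.3 and limma 3.58.1 (lmFit, then eBayes with an intensity trend) on 18193 genes and 7 group means, with Benjamini-Hochberg adjustment over all genes and calls at an adjusted p under 0.05. Scripts were tested on simulated data. Same-numbered treated and control arrays of a day had correlated deviations in 9 of 9 pairs (threshold 0.1), so a fit with these 9 pairs as blocks is given where it changes a call.

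All 10 genes are reported whatever their test. Of the pathway list, up to 4 called genes per direction were named in each step, and up to 3 genes per member for likeness of course. Members and lists were chosen with earlier results of these data known. Some genes of the pathway list are not reported here. Folds are 2 to the power of the log2 difference. Alternatives were other scaling, filters, probe set rules, blocks and left-out arrays.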

Additional observations from a re-analysis of the deposited data

Results flagged for a closer look

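The effect of ascorbic acid on Jag1 differed between days in the paired fit (F test over the day differences, adjusted p = 0.00969, limma), whereas the unpaired F test gave adjusted p = 1.00. On the brightest probe set, 1434070_at, the mean pair difference was -0.57 at day 2 and 0.673 at day 5. There every pair of day 2 was lower while every pair of day 5 was higher. The paired F test did not call 1421106_at or 1421105_at (adjusted p = 0.677 and 0.894, all probe sets tested). Each of them had a day 2 pair that was higher (0.41 and 0.35). At day 3 the mean was -0.05 ± 0.13 (SE, adjusted p = 0.996 in the paired limma fit), against 0.673 at day 5. Its pairs of -0.03, -0.09 and -0.03 lay close to 0. The single contrasts between 2 of the days were not tested beyond the F test.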

How the results depend on the processing

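Over 66 gene results and all settings, 2347 comparisons were made: 2279 kept their side of the threshold, 40 lost the call and 28 gained one. Of the 1568 comparisons uncalled in both settings 77 turned sign, and 0 called values did. For day 0 to day 2 without ascorbic acid the 4 called genes became 2 (Notch1 and Dll3) with the mean of a gene's probe sets and 1 (Notch1) with only the groups compared, and 2 to 6 with single arrays left out. For day 2 to day 3 the 1 gene became 2 (Jag1 and Hes1) with only the groups compared and with the replicate block for the number over all arrays, and 0 to 2 with arrays left out. For day 0 to day 2 with ascorbic acid the 4 became 2 with only the groups compared and 1 to 5 with arrays left out, and for day 2 to day 3 with ascorbic acid the 2 became 0 to 3.

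With the replicate block of treated and control arrays the counts for ascorbic acid went from 0 to 2 at day 2, to 1 at day 5, to 1 on average and to 1 for the difference between days, the same with repeated quantile normalization. Leaving out single pairs gave 0 to 2 at day 2 and 0 to 1 for the other 3. The block over all arrays called 0 of the 10 for ascorbic acid and added Hes1 to the 2 called from day 2 to day 3 with it. Hey2 fell out of the tests that kept only genes with a mean of at least 5. The causes were not tested.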
